A study of Arabidopsis thaliana with 42 samples.

Results

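The gibberellin oxidases described here are 9 genes of Arabidopsis thaliana that encode the oxidases of the last steps of gibberellin metabolism: GA20ox1, GA20ox2, GA20ox3, GA3ox1, GA3ox2, GA2ox1, GA2ox2, GA2ox6 and GA2ox8. They were taken by their locus identifiers, without regard to their values, and make up 9 of the 33602 loci in each of the deposited count tables. Messenger RNA was measured by RNA sequencing of poly(A)-selected RNA from whole seedlings of 2 genotypes in the Col-0 accession, the wild type and link1link2, which carries mutations in both genes the series is named for. LINK1 and LINK2 were taken to be LNK1 and LNK2, light-induced genes whose proteins act with MYB-like transcription factors of the circadian clock. Seedlings were 9 days old and grew on MS medium at 22 °C, per the labels. The series design gives a longer growth time for continuous light, and this difference could not be resolved. In continuous light there were 3 libraries of each genotype, with no harvest time given. In long days of 16 h light and 8 h darkness there were 3 libraries of each genotype at each of 6 zeitgeber times (ZT, hours after lights on), ZT2, ZT6, ZT10, ZT14, ZT18 and ZT22, which gave 36 libraries in 12 groups.

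Gibberellins are growth hormones that promote germination, stem and hypocotyl elongation and flowering. GA 20-oxidases carry out successive oxidations that produce the precursors of the active hormones, GA 3-oxidases convert these precursors into the active forms, and GA 2-oxidases inactivate active hormones or their precursors. All are 2-oxoglutarate-dependent dioxygenases, and several of the GA20ox and GA3ox genes are known to be repressed by active gibberellin, whereas GA2ox genes are known to be induced by it. In seedlings, light and the clock are known to act on transcripts of both classes.

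Library totals ran from 11448934 to 14911921 counts in continuous light and from 7259559 to 13576565 counts in long days. Levels are given as CPM, a gene's counts scaled to a common library size, so that values well under 1 CPM rest on a handful of reads. Chloroplast-encoded transcripts exceeded 2% of the counts in 4 long-day libraries, which were wild type ZT10 library B and link1link2 ZT2 library C, ZT22 library A and ZT22 library C. In continuous light the level of LNK2 was 140 ± 0.568 CPM for the wild type and 16.9 ± 0.685 CPM for link1link2 (SD, n = 3). In long days all 3 mutant libraries were below the wild type for LNK2 at 4 times and above it at ZT14 and ZT18. For LNK1 they were below it in continuous light and at ZT2, ZT6 and ZT10, and above it from ZT14 on. Seed-storage and oil-body markers, of which 2 to 4 of 6 were at 0 in a whole group, summed to at most 18.3 CPM in any library, and leaf markers to at least 15220 CPM. In bulk tissue, fewer cells that express a gene and less RNA per cell cannot be told apart. The labels do not say whether libraries of a group came from separate plates or plants, and the spread that the p-values rest on may be technical.

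The sequence just upstream of GA20ox1, the member with the largest mean genotype effect over long days among the 7 tested, is shown because daily transcript rhythms are often described through short clock elements there. The 300 bases before the annotated start of GA20ox1 (TAIR10.1, chr4:12992586-12992885, minus strand) are given 5′ to 3′ in the direction of transcription and credited to RefSeq.
GA20ox1: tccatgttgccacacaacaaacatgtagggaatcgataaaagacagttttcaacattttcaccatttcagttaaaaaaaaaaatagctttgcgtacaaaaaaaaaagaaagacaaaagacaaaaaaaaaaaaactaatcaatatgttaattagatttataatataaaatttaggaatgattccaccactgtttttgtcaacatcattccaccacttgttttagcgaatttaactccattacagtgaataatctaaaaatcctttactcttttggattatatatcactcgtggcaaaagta

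This stretch did not hold the evening element AAATATCT, the CCA1-binding site AAAAATCT or the G-box CACGTG on either strand, and nor did the 300 bases before 7 other members. Among 26711 promoters of that length, 5.71% held the evening element, 8% the CCA1-binding site and 7.18% the G-box. In a window of 1000 bases, chosen after none was found in 300, GA20ox2 held 1 CCA1-binding site and GA2ox6 held 1 evening element, against 21.3% and 15.4% of promoters, and none of these 8 members held the G-box, against 14.9%. The match of GA20ox2 began 361 bases before the gene start, in chr5:21057179-21057298 (minus strand), and that of GA2ox6 began 916 bases before it, in chr1:485828-485947 (plus strand). Both stretches of 120 bases are given in the direction of transcription with the matched letters in capitals. A match is a description of these letters and not a known binding site.
GA20ox2: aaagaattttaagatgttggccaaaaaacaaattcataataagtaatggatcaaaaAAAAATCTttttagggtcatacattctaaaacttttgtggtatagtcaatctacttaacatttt
GA2ox6: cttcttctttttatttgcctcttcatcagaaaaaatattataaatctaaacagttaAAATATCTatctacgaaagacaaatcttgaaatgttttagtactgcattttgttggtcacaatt

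The members are spread over 3 chromosomes, with GA20ox1 (AT4G25420) on chromosome 4 at 12990851 to 12992585, GA20ox2 (AT5G51810) on chromosome 5 at 21055179 to 21056881 and GA3ox2 (AT1G80340) on chromosome 1 at 30200466 to 30202349 in TAIR10.1. GA3ox1 (AT1G15550), GA2ox1 (AT1G78440), GA2ox2 (AT1G30040) and GA2ox6 (AT1G02400) also lie on chromosome 1, GA20ox3 (AT5G07200) on chromosome 5 and GA2ox8 (AT4G21200) on chromosome 4. No member overlaps another annotated locus. The longest run of identical exon sequence shared by any pair of gibberellin oxidases was 29 bases, between GA20ox1 and GA20ox2.

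In long days, 7 of the 9 members had enough counts to be tested, and 18 of the 42 pairs of a gene and a time differed between the genotypes, where 14.7% to 30.6% of all genes tested did at a single time. GA20ox1 was higher in link1link2 at 5 of 6 times, GA20ox2 was lower at ZT6 and higher at ZT22, and GA3ox2 was lower at 4 times from ZT10 on. Of the inactivating enzymes, GA2ox1 was lower at ZT6 and ZT10, GA2ox2 was higher at ZT2, and GA2ox6 was lower at ZT18 and higher at ZT22. GA3ox1 was higher at ZT2 and lower at ZT6. A difference was called at an adjusted p under 0.05 by edgeR's quasi-likelihood test with Benjamini-Hochberg adjustment over all 20518 genes tested, and adjusted p-values below are from that test unless stated.

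**Figure D1:**
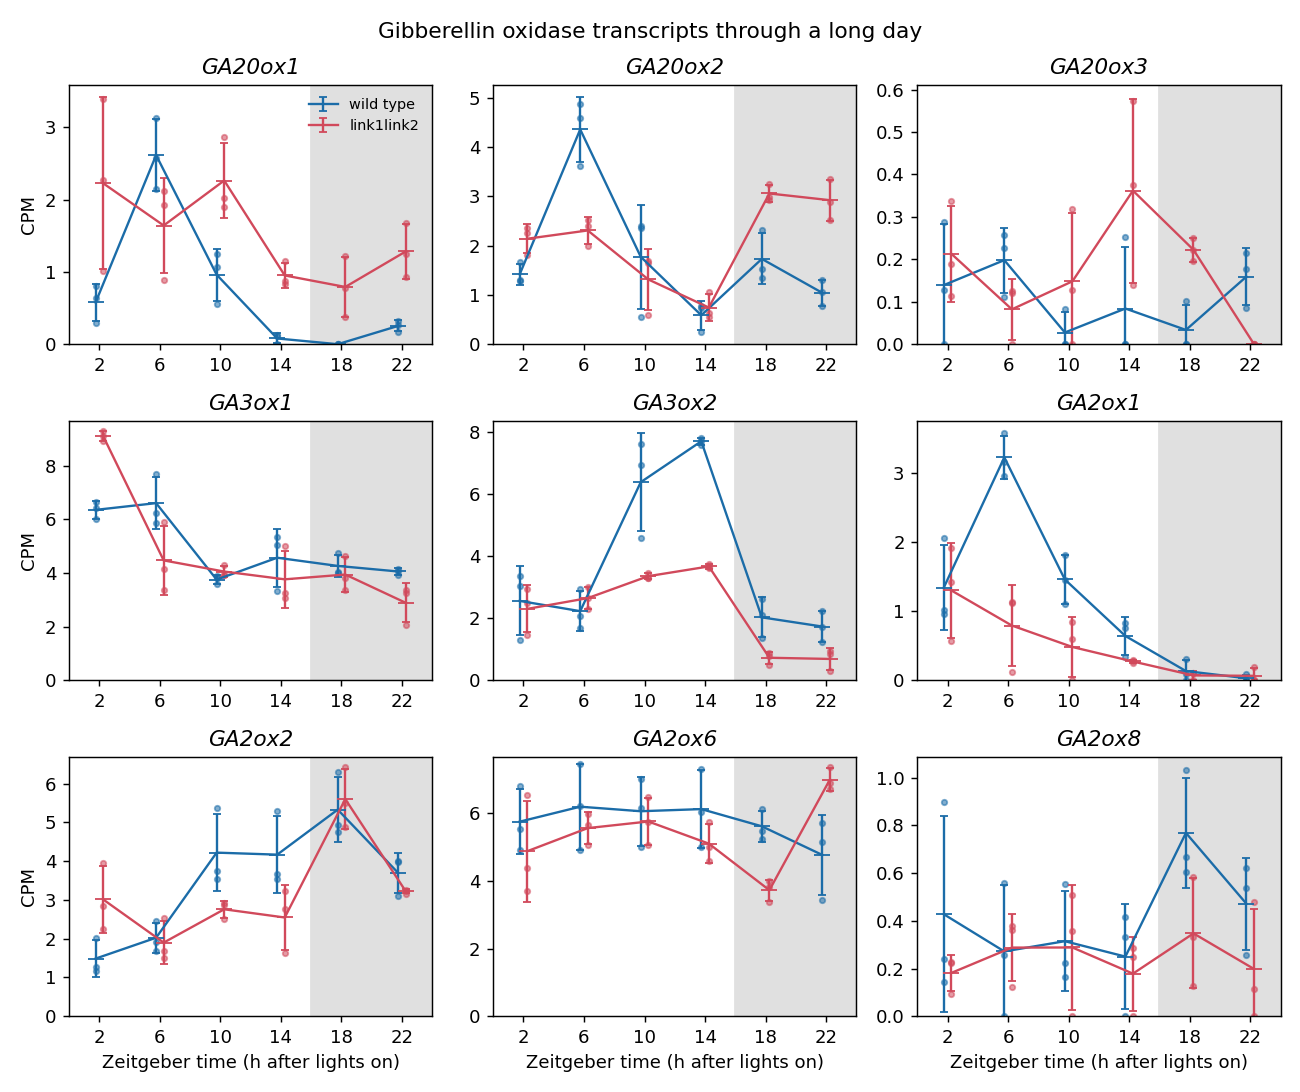
CPM of the 9 gibberellin oxidase genes (y axis, a scale of its own in each panel) against zeitgeber time in long days (x axis, hours after lights on) in wild type (blue) and link1link2 (red), with points for libraries, bars for mean ± SD of 3 libraries and grey for darkness. GA20ox1 was at 0 in wild type at ZT18 and at 0.791 CPM in link1link2, and the wild-type peak of GA3ox2 at ZT14 stood at 7.69 CPM against 3.66 CPM in the mutant.

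GA20ox1, a GA 20-oxidase known for its part in stem elongation, had a sharp daily profile in wild type and a flatter one in link1link2. Wild-type libraries A, B and C held 2.14, 3.13 and 2.57 CPM at ZT6, the highest time, and 0 counts each at ZT18. With 0 counts in the 3 libraries together, a level of up to 0.0998 CPM is allowed, for counting error only. The mutant libraries held 0.376, 0.78 and 1.22 CPM at ZT18, 22 counts in all. All 3 were therefore above the wild type (adjusted p = 0.000156, edgeR quasi-likelihood test). From the pooled counts, the mutant level was at least 8.09-fold higher against a floor of 3 counts over the wild-type group, and the exact 95% counting interval, which also takes in the counting error of the mutant, began at 6.04-fold. At ZT14 there were 2 counts in wild type and 25 in link1link2, which gave a 12.9-fold ratio (95% counting interval 3.22 to 112.4, exact) and no overlap of libraries (adjusted p = 0.00185). At ZT22 wild type held 0.17, 0.323 and 0.266 CPM and link1link2 0.926, 1.25 and 1.68 CPM. The lowest mutant library was again above the highest wild-type one, with a log2 fold change of 2.33 ± 0.55 (SE, adjusted p = 0.00104).

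In the light GA20ox1 behaved differently at neighbouring times. At ZT2 the wild-type libraries held 0.642, 0.801 and 0.289 CPM and the mutant ones 2.28, 3.39 and 1.01 CPM, all 3 higher (log2 fold change 1.82 ± 0.44, adjusted p = 0.00259). At ZT6 the order was turned, with 0.883, 2.12 and 1.92 CPM in the mutant, all below the lowest wild-type library, but this difference was not called (-0.66 ± 0.37, adjusted p = 0.228). At ZT10 the wild type stood at 0.559, 1.25 and 1.07 CPM and the mutant at 2.03, 1.90 and 2.86 CPM (1.25 ± 0.40, adjusted p = 0.0207). The call at ZT10 was lost without wild type library A (adjusted p = 0.123) or mutant library C (0.125) and in DESeq2 (0.0505). Averaged over the 6 times on the log2 scale, GA20ox1 was higher in link1link2 by 2.35 ± 0.28 (adjusted p = 7.44e-09), a value that takes in the fitted folds of the times at which wild type held 0 or 2 counts. The mean level over the day was 0.747 CPM for the wild type and 1.53 CPM for link1link2.

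The order of wild-type levels of GA20ox1 was ZT6, ZT10, ZT2, ZT22, ZT14 and ZT18. Between neighbouring times it rose from ZT2 to ZT6 (log2 change 2.06 ± 0.43, adjusted p = 0.000128), fell to ZT10 (-1.44 ± 0.40, adjusted p = 0.00545) and fell again to ZT14 (-3.44 ± 0.79, adjusted p = 0.000691). The rise from ZT18 to ZT22 passed the test (adjusted p = 0.027), but not without any 1 of the 3 wild-type libraries of ZT18 or without library B or C of ZT22 (0.0543 to 0.0736), while the steps from ZT14 to ZT18 and from ZT22 to ZT2 did not (adjusted p = 0.213 and 0.0975). In link1link2 the order was ZT10, ZT2, ZT6, ZT22, ZT14 and ZT18, with means from 2.26 ± 0.521 CPM down to 0.791 ± 0.421 CPM (SD, n = 3). Of its steps, only the fall from ZT10 to ZT14 passed (-1.23 ± 0.41, adjusted p = 0.0254), and not without mutant ZT10 library C (0.131), ZT14 library A (0.0786) or ZT14 library C (0.0741), nor in DESeq2 (0.0532). A cosine with a 24 h period fitted to log2 CPM put the peak at 5.72 ± 0.375 h (SE) in wild type and 5.62 ± 1.2 h in link1link2. Its peak-to-trough range was 5.08 ± 0.50 log2 units in wild type and 1.32 ± 0.41 in the mutant, and the genotypes' rhythms differed (edgeR test of the cosine terms, adjusted p = 0.000393). The wild-type range takes in ZT18 with 0 counts and ZT14 with 2, so its size and SE depend on the prior count of 0.5. The range was not refitted with another prior count.

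GA20ox2, the GA 20-oxidase that acts together with GA20ox1 in stem growth, had its highest mean at ZT6 in wild type and its highest means at ZT18 and ZT22 in link1link2. The wild-type libraries held 3.61, 4.58 and 4.88 CPM at ZT6 and the mutant ones 2.52, 1.99 and 2.41 CPM. All 3 mutant libraries were lower, with a log2 fold change of -0.91 ± 0.29 (SE, adjusted p = 0.0222). At ZT22 the wild type held 0.766, 1.29 and 1.06 CPM and the mutant 2.89, 3.35 and 2.52 CPM, all higher (1.5 ± 0.34, adjusted p = 0.000526). At ZT18 the values were 1.34, 1.53 and 2.32 CPM against 3.26, 2.93 and 2.99 CPM, which did not overlap but missed the threshold (0.81 ± 0.31, adjusted p = 0.0579). That difference passed without wild-type ZT10 library A (adjusted p = 0.0305), wild-type ZT18 library C (0.037) or mutant ZT10 library A (0.0488), and with ZT18 fitted alone (0.0301). The call at ZT6 was lost on leaving out wild-type ZT6 library B (adjusted p = 0.0758) or C (0.0883) or mutant ZT6 library B (0.0937) or C (0.0525).

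At the other times no difference of GA20ox2 was called. The means were 1.42 ± 0.218 against 2.14 ± 0.296 CPM at ZT2 (SD, n = 3), 1.77 ± 1.05 against 1.31 ± 0.621 CPM at ZT10 and 0.587 ± 0.291 against 0.743 ± 0.268 CPM at ZT14, and libraries overlapped at ZT10 and ZT14. Opposite directions at different times left a mean effect of 0.32 on the log2 scale that was not called (adjusted p = 0.103, but 0.047 without mutant ZT10 library A). The order in wild type was ZT6, ZT10, ZT18, ZT2, ZT22 and ZT14, and in link1link2 ZT18, ZT22, ZT6, ZT2, ZT10 and ZT14. Both genotypes rose from ZT14 to ZT18, by 1.5 ± 0.43 in wild type (adjusted p = 0.0045) and 1.96 ± 0.38 in the mutant (adjusted p = 2.77e-05). The wild type also had called steps in the light, a rise of 1.62 ± 0.32 from ZT2 to ZT6 (adjusted p = 3.87e-05), a fall to ZT10 (-1.27 ± 0.30, adjusted p = 0.00109) and a fall to ZT14 (-1.55 ± 0.43, adjusted p = 0.00421, but 0.0797 without wild-type ZT10 library C). Cosine peaks stood at 4.86 ± 1.49 h in wild type and 23.6 ± 0.973 h in link1link2, a shift of -5.30 ± 1.78 h (negative for an earlier mutant peak). The rhythms differed (edgeR test of the cosine terms, adjusted p = 0.0258). This call was lost without the libraries over 2% chloroplast counts (adjusted p = 0.0703) and without wild-type ZT6 library B (0.0567) or C (0.0563). The cosine took up a share of only 0.304 of the variance in wild type and 0.507 in link1link2. Wild type rose both from ZT2 to ZT6 and from ZT14 to ZT18, which a single 24 h cosine cannot follow, so the shift is a rough description.

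GA20ox3 had 19 counts over all libraries of continuous light and 45 over those of long days and was not tested. Its highest long-day group was link1link2 at ZT14, with 10 counts against 2 in wild type, a 5.16-fold ratio (counting interval 1.10 to 48.5) with overlapping libraries. At ZT18 there were 2 counts in each mutant library and 1 count in all of wild type, a 6.62-fold ratio (0.803 to 304.3). The 3 mutant libraries of ZT22 held 0 counts, which allows up to 0.101 CPM, against 5 counts in wild type, and the counting interval of the ratio of link1link2 to wild type, 0 to 1.18, included no change. Without the filter on low counts none of its genotype differences in long days passed, the lowest adjusted p at a time being 0.0949 at ZT22 (unadjusted p = 0.0267).

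GA3ox1, the GA 3-oxidase with the main part in vegetative growth, was among the most abundant members and kept a morning peak in both genotypes. At ZT2 the wild-type libraries held 6.42, 6.01 and 6.65 CPM and the mutant ones 9.11, 8.92 and 9.31 CPM. The mutant was higher in all 3 libraries by 0.53 ± 0.17 on the log2 scale (SE, adjusted p = 0.0242). At ZT6 the wild type held 5.87, 6.26 and 7.70 CPM and the mutant 4.16, 3.36 and 5.89 CPM, lower by the test but with 1 pair of libraries overlapping (-0.55 ± 0.19, adjusted p = 0.0356). Both calls were lost in DESeq2 (adjusted p = 0.0716 and 0.0877). The call at ZT2 was also lost without wild-type ZT2 library A (0.0711) or B (0.122) or mutant ZT2 library A (0.0502) or C (0.0831), and without the libraries over 2% chloroplast counts (0.0669). The call at ZT6 was lost without wild-type ZT6 library B (0.058) or C (0.182) or mutant ZT6 library A (0.12) or B (0.226), with library totals as the only scaling (0.0645) and with ZT6 fitted alone (0.0543).

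Later in the day no difference of GA3ox1 was called. Means were 3.76 ± 0.161 against 4.06 ± 0.221 CPM at ZT10 (SD, n = 3), 4.57 ± 1.09 against 3.77 ± 1.07 CPM at ZT14 and 4.27 ± 0.421 against 3.95 ± 0.645 CPM at ZT18, none of them called. At ZT22 all 3 mutant libraries (3.36, 3.26 and 2.05 CPM) were below the wild-type ones (3.91, 4.09 and 4.17 CPM), and the difference missed the threshold (-0.50 ± 0.21, adjusted p = 0.065). It passed without mutant ZT6 library C (0.0469) or mutant ZT14 library A (0.0479). The order was ZT6, ZT2, ZT14, ZT18, ZT22 and ZT10 in wild type and ZT2, ZT6, ZT10, ZT18, ZT14 and ZT22 in link1link2. In wild type the steps that passed were the rise from ZT22 to ZT2 (0.64 ± 0.19, adjusted p = 0.00367, but 0.0934 with library totals as the only scaling) and the fall from ZT6 to ZT10 (-0.81 ± 0.19, adjusted p = 0.0013). In link1link2 the rise from ZT22 to ZT2 was 1.67 ± 0.19 (adjusted p = 2.69e-10), and the fall came from ZT2 to ZT6 (-1.02 ± 0.18, adjusted p = 1.03e-05). Cosine peaks were at 3.8 ± 1.12 h and 3.82 ± 1.61 h, and the test of the cosine terms was not passed (adjusted p = 0.747). The cosine peak of the mutant moved to 2.01 h without the libraries over 2% chloroplast counts.

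GA3ox2, the GA 3-oxidase that overlaps in function with GA3ox1 in germination and early seedling growth, was lower in link1link2 from the afternoon to the end of the night. At ZT14, its highest time in both genotypes, the wild-type libraries held 7.79, 7.70 and 7.56 CPM and the mutant ones 3.61, 3.63 and 3.74 CPM. The 3 libraries of each genotype lay close together and the groups were well apart, with a log2 fold change of -1.07 ± 0.24 (SE, adjusted p = 0.00134). At ZT10 the values were 6.93, 4.58 and 7.60 CPM against 3.46, 3.30 and 3.28 CPM (-0.96 ± 0.25, adjusted p = 0.00323). In the dark the wild type held 1.34, 2.1 and 2.62 CPM at ZT18 and the mutant 0.501, 0.78 and 0.886 CPM, all lower (-1.45 ± 0.40, adjusted p = 0.00612). At ZT22 the values were 2.21, 1.72 and 1.24 CPM against 0.926, 0.287 and 0.839 CPM, again without overlap (-1.35 ± 0.40, adjusted p = 0.0084).

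In the morning no difference of GA3ox2 was called, at 2.55 ± 1.11 against 2.29 ± 0.759 CPM at ZT2 (SD, n = 3, adjusted p = 0.966) and 2.22 ± 0.645 against 2.64 ± 0.352 CPM at ZT6 (adjusted p = 0.666). Averaged over the day its log2 fold change was -0.77 ± 0.13 (adjusted p = 1.13e-05). The ZT18 call missed the threshold without wild-type library C (adjusted p = 0.0542), and the ZT22 call without wild-type library A (0.0699) or mutant library B (0.0877). The order was ZT14, ZT10, ZT2, ZT6, ZT18 and ZT22 in wild type and ZT14, ZT10, ZT6, ZT2, ZT18 and ZT22 in link1link2. Wild type rose from ZT6 to ZT10 (1.54 ± 0.27, adjusted p = 1.35e-05), a step that was 0.34 ± 0.29 in link1link2 (adjusted p = 0.531). Both fell from ZT14 to ZT18, with log2 changes of -1.92 ± 0.26 in wild type (adjusted p = 6.27e-08) and -2.30 ± 0.36 in the mutant (adjusted p = 9.44e-07). The mutant rose from ZT22 to ZT2 (1.77 ± 0.39, adjusted p = 0.000116), a step that was called in wild type without ZT2 library B (0.019) but not with it (0.232). Cosine peaks were at 11.7 ± 0.771 h and 9.01 ± 0.658 h, with no called difference in the cosine terms (adjusted p = 0.158).

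GA2ox1, a GA 2-oxidase that inactivates gibberellins of the C19 group, had a midday peak in wild type that was lower in link1link2. At ZT6 the wild-type libraries held 3.16, 3.58 and 2.95 CPM and the mutant ones 1.14, 1.12 and 0.12 CPM, all lower (log2 fold change -2.03 ± 0.47, SE, adjusted p = 0.00129). At ZT10 the values were 1.45, 1.11 and 1.82 CPM against 0.597, 0 and 0.848 CPM, again without overlap (-1.56 ± 0.57, adjusted p = 0.0436). This second call was lost in DESeq2 (adjusted p = 0.0674), without the filter on low counts (0.054) and on leaving out any of 11 libraries. Of the libraries of ZT10 these were wild type A (0.0798) and C (0.184) and mutant A (0.0806) and B (0.237), and the other 7 (wild type ZT2 C and ZT6 A, B and C, and mutant ZT6 A and ZT14 A and C) gave 0.05 to 0.0546. At ZT2 means were 1.34 ± 0.617 and 1.3 ± 0.687 CPM (SD, n = 3, adjusted p = 1).

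In the evening and at night GA2ox1 was near the limit of detection in both genotypes. At ZT14 the 3 wild-type libraries held 17 counts and the mutant ones 7, all lower but not called (adjusted p = 0.351). At ZT18 there were 4 counts against 2, and at ZT22 1 against 2. Both genotypes rose from ZT22 to ZT2 (adjusted p = 2.21e-05 in wild type and 5.77e-05 in link1link2). Wild type rose further to ZT6 (1.3 ± 0.42, adjusted p = 0.0104, but 0.1 without wild-type ZT2 library B). It fell from ZT6 to ZT10 (adjusted p = 0.0456) and from ZT14 to ZT18 (adjusted p = 0.0443), but the first step missed the threshold in 29 of 43 alternatives, with adjusted p of up to 0.153 (without wild-type ZT10 library B). The second missed it without wild-type ZT14 library B (0.142) or C (0.0976), without wild-type ZT18 library A (0.163) or B (0.12), and with library totals as the only scaling (0.0502). In link1link2 the level was highest at ZT2, and none of the other 5 steps passed the test.

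GA2ox2, also a GA 2-oxidase of the C19 group, had its highest mean at ZT18 in both genotypes. At ZT2 the wild-type libraries held 1.16, 1.28 and 2.02 CPM and the mutant ones 2.85, 3.95 and 2.24 CPM, all higher (1.05 ± 0.29, SE, adjusted p = 0.00811). At ZT18 the means were 5.33 ± 0.848 and 5.60 ± 0.776 CPM (SD, n = 3, adjusted p = 0.876). In between, all 3 mutant libraries were below the wild type at ZT10 (2.51, 2.92 and 2.86 against 5.36, 3.75 and 3.55 CPM) and at ZT14 (2.78, 3.24 and 1.62 against 3.67, 5.31 and 3.53 CPM). Neither difference was called (-0.60 ± 0.24, adjusted p = 0.0706, and -0.70 ± 0.25, adjusted p = 0.0504), and the one at ZT14 passed with library totals as the only scaling (0.0261) and in 10 other alternatives. These include leaving out mutant ZT14 library B (0.024), wild-type ZT14 library C (0.0442) or any of 5 libraries of other times (0.0441 to 0.048). The one at ZT10 passed with the chloroplast share as a covariate (0.0426). The call at ZT2 was lost without wild-type ZT2 library A (0.0559) or B (0.0717) or mutant ZT2 library B (0.0767) and with ZT2 fitted alone (0.066).

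The wild type fell in GA2ox2 from ZT22 to ZT2 (-1.35 ± 0.27, adjusted p = 5.85e-05) and rose from ZT6 to ZT10 (1.04 ± 0.26, adjusted p = 0.00185). In link1link2 the rise came from ZT14 to ZT18 (1.10 ± 0.24, adjusted p = 0.000128), followed by a fall to ZT22 (-0.79 ± 0.22, adjusted p = 0.00599), which was not called without the libraries over 2% chloroplast counts (0.088). The order was ZT18, ZT10, ZT14, ZT22, ZT6 and ZT2 in wild type and ZT18, ZT22, ZT2, ZT10, ZT14 and ZT6 in link1link2. Cosine peaks were at 15.7 ± 0.621 h in wild type and 19 ± 1.02 h in link1link2, 3.34 ± 1.19 h later, and the cosine terms were not called as different (adjusted p = 0.0891).

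GA2ox6, a further GA 2-oxidase, was the most evenly expressed member, with wild-type means from 4.76 ± 1.18 CPM at ZT22 to 6.19 ± 1.27 CPM at ZT6 (SD, n = 3) and no called effect of time of day (adjusted p = 0.435). In link1link2 time of day had an effect (adjusted p = 0.00241). There the 3 libraries held 3.38, 3.8 and 3.99 CPM at ZT18, all below the wild-type values of 5.48, 6.12 and 5.24 CPM (-0.59 ± 0.20, SE, adjusted p = 0.0331). At ZT22 they held 6.71, 6.90 and 7.37 CPM, all above the wild-type values of 5.70, 3.45 and 5.15 CPM (0.54 ± 0.18, adjusted p = 0.0203). The mutant rose between these times by 0.90 ± 0.20 (adjusted p = 0.000437) and fell from ZT22 to ZT2 (-0.54 ± 0.19, adjusted p = 0.011, but 0.12 without mutant ZT2 library A and 0.175 without the libraries over 2% chloroplast counts).

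Both genotype calls of GA2ox6 depended on single libraries. The ZT18 call was lost without wild-type ZT18 library A (adjusted p = 0.0579) or B (0.119), without mutant ZT18 library A (0.104), B (0.0782) or C (0.0571), and in DESeq2 (0.0682). The ZT22 call was lost without wild-type ZT22 library B (0.157) or mutant ZT22 library C (0.0719), and without the libraries over 2% chloroplast counts (0.172). The libraries over 2% include 2 of the 3 mutant libraries at ZT22, and the part of the chloroplast share in the result was not tested beyond these values.

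GA2ox8, which acts on gibberellins of the C20 group, totalled 21 counts over the continuous-light libraries and 111 over the long-day ones and was not tested. Its highest group was wild type at ZT18, with 1.03, 0.669 and 0.605 CPM, against 0.125, 0.585 and 0.332 CPM in link1link2. The 3 mutant libraries were lower, and the ratio of 10 to 23 counts, 0.479, had a counting interval of 0.204 to 1.05.

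**Figure D2:**
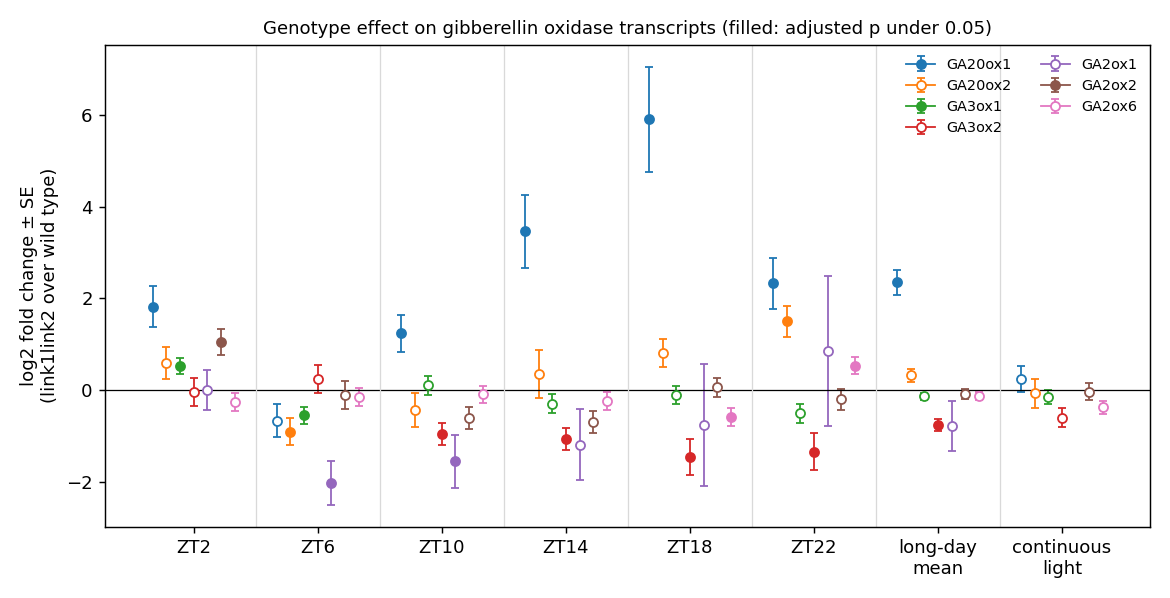
Log2 fold change of link1link2 over wild type (y axis, ± SE) for the 7 gibberellin oxidases tested in long days at each time, for the mean over the day and for continuous light (x axis), with filled symbols at an adjusted p under 0.05. GA20ox1 lay above 0 at every time but ZT6 and GA3ox2 lay below 0 from ZT10 on; the values of GA20ox1 at ZT14 and ZT18 and of GA2ox1 at ZT18 and ZT22 rest on groups with 4 counts or fewer and are fitted values that depend on the prior count.

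The counts of called members are given beside the share of all genes called in the same comparison. At ZT2 3 of 7 members were called, against 16.1% of all genes tested. At ZT6 3 of 7 were called, all lower, against 20.1%, and at ZT10 3 of 7 against 22.1%. At ZT14 2 of 7 were called against 14.7%, at ZT18 3 of 7 against 20.2%, and at ZT22 4 of 7 against 30.6%. For the mean over the day 2 of 7 were called, GA20ox1 higher and GA3ox2 lower, against 33.9%. The members' median log2 fold change was positive in the early morning (0.53 at ZT2) and before dawn (0.54 at ZT22). In between it was negative, at -0.55 (ZT6), -0.44 (ZT10), -0.30 (ZT14) and -0.11 (ZT18). That of all genes lay between -0.00437 and 0.0186 at these times, since the scaling of libraries holds it near 0, and it is no measure of how far a median of 7 genes may scatter. The median at ZT22 also takes in GA2ox1, from 1 count in wild type and 2 in link1link2. The medians were not tested.

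The genotype effect changed with time of day for 6 of the 7 members, all but GA2ox1 (adjusted p = 0.153, but 0.0444 without the libraries over 2% chloroplast counts), against 41.9% of all genes. For GA2ox6 this call was lost without those libraries (0.144) and without wild-type ZT22 library B (0.0806) or mutant ZT22 library C (0.0542). Time of day had a called effect on 6 of 7 members in wild type, all but GA2ox6, against 79.9%, and on 7 of 7 in link1link2, against 83.8%. By the cosine terms, the rhythm of 2 of 7 differed between genotypes, GA20ox1 and GA20ox2, against 15.3% of all genes.

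Counted by step, wild-type members moved most in the middle of the day. From ZT22 to ZT2, 3 of 7 members passed in wild type (GA3ox1 and GA2ox1 rose, GA2ox2 fell), against 53.1% of all genes. From ZT2 to ZT6 it was 3 of 7, all rising, against 45.1%, and from ZT6 to ZT10 6 of 7, 4 falling and 2 rising, against 22.5%. From ZT10 to ZT14 it was 2 of 7 against 33.2%, from ZT14 to ZT18 3 of 7 against 37.6%, and from ZT18 to ZT22 1 of 7 against 22%.

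The mutant's steps were fewer in the light. From ZT22 to ZT2, 4 of 7 members passed in link1link2, GA3ox1, GA3ox2 and GA2ox1 rising and GA2ox6 falling, against 62.8% of all genes. From ZT2 to ZT6 it was 1 of 7 against 43.5%, and from ZT10 to ZT14 1 of 7 against 23.7%. From ZT6 to ZT10 edgeR called 0 of 7, against 12%, with 1 member at an unadjusted p under 0.05 (GA20ox2, 0.0323) and 0 called by DESeq2 among the 5 members for which it gave an adjusted p. From ZT14 to ZT18 it was 3 of 7 against 48.4%, and from ZT18 to ZT22 2 of 7 against 25.3%. Whether a step differed between genotypes was not tested step by step.

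**Figure D3:**
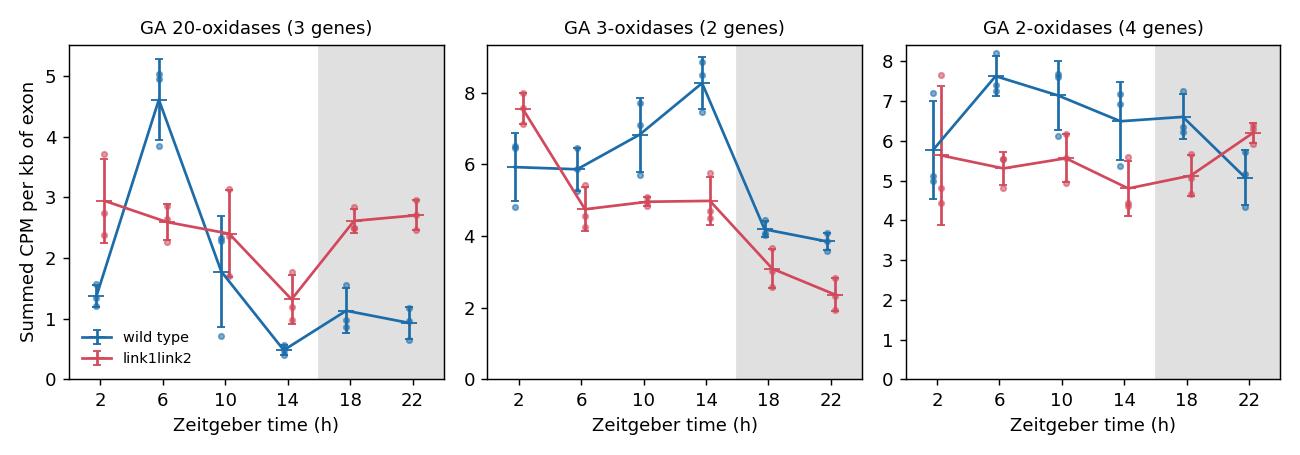
Summed level of the GA 20-oxidases, GA 3-oxidases and GA 2-oxidases (y axis, CPM per kb of exon) against zeitgeber time (x axis, hours after lights on) in wild type (blue) and link1link2 (red), with points for libraries and bars for mean ± SD of 3 libraries. The GA 20-oxidase sum peaked at ZT6 in wild type at 4.61 CPM per kb and lay between 1.32 and 2.94 CPM per kb in link1link2.

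Per kb of exon, the summed level of the 3 GA 20-oxidases was 4.61 ± 0.664 CPM per kb in wild type at ZT6 (SD, n = 3) and 2.59 ± 0.301 in link1link2. The mutant sum was the higher one, without overlap between libraries, at 4 times. It was 2.94 ± 0.69 against 1.37 ± 0.184 CPM per kb at ZT2, 1.32 ± 0.407 against 0.48 ± 0.0865 at ZT14, 2.61 ± 0.201 against 1.13 ± 0.368 at ZT18 and 2.70 ± 0.251 against 0.93 ± 0.261 at ZT22. The sum of the 2 GA 3-oxidases was 8.27 ± 0.721 CPM per kb in wild type and 4.98 ± 0.681 in link1link2 at ZT14, and 3.85 ± 0.249 against 2.37 ± 0.459 at ZT22, again without overlap. It was likewise lower in the mutant without overlap at ZT10 (6.83 ± 1.03 against 4.96 ± 0.133 CPM per kb) and ZT18 (4.19 ± 0.223 against 3.09 ± 0.549). At ZT2 it was the mutant sum that was higher without overlap, at 7.56 ± 0.44 against 5.93 ± 0.954 CPM per kb. The sum of the 4 GA 2-oxidases among the members, without GA2ox4, lay between 5.07 and 7.63 CPM per kb in wild type. In the mutant it lay between 4.80 and 6.21. It was lower in the mutant without overlap at ZT6 (7.63 ± 0.506 against 5.31 ± 0.426 CPM per kb) and ZT18 (6.6 ± 0.567 against 5.13 ± 0.507). At ZT22 it was higher in the mutant without overlap (5.07 ± 0.697 against 6.21 ± 0.251), and at the other times libraries overlapped. The sums are a description and were not tested.

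Ranked by level per kb of exon over the long-day groups, GA2ox6 (3.84 CPM per kb in wild type, 3.56 in link1link2) and GA3ox1 (3.24 and 3.09) stood highest. GA3ox2 followed in wild type at 2.58, but stood at 1.53 in the mutant, near GA2ox2 (1.47 and 1.33) and GA20ox2 (1.17 and 1.33). GA2ox1 was at 0.869 and 0.379 CPM per kb and GA20ox1 at 0.484 and 0.988, so these neighbours changed places between the genotypes. GA2ox8 (0.281 and 0.166) and GA20ox3 (0.0666 and 0.107) were lowest. Neighbours in this order had group means over the day that overlapped in range in both genotypes, except GA2ox8 and GA20ox3 in wild type.

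Across the 12 long-day group means of log2 CPM, the members were only loosely alike. The highest Pearson correlation among pairs was 0.671, between GA3ox1 and GA2ox1, and the lowest was -0.664, between GA20ox2 and GA3ox2, while GA20ox1 and GA20ox2 had 0.482. Each group mean shares its libraries among all genes. Among genes whose average log2 CPM was 1 or more, those most like GA20ox1 were AT5G64180 (0.946), CAB1 (0.934) and AT5G20170 (0.913), and those most like GA20ox2 were AT5G63640 (0.926), ASN1 (0.907) and DSK2 (0.901). For GA3ox1 they were ERF4 (0.911), AT4G22505 (0.906) and AT5G11650 (0.897), and for GA3ox2 AT5G03430 (0.977), PnsL3 (0.970) and AT4G00165 (0.962). For GA2ox1 they were AT4G11560 (0.963), AT4G29110 (0.963) and HBT (0.961), for GA2ox2 AT4G27900 (0.928), AT1G76185 (0.921) and AT5G26731 (0.917), and for GA2ox6 AT2G44090 (0.783), AT2G38570 (0.757) and AT3G58800 (0.753). The candidates numbered 18238 or 18239 by member at 12 points each, and these values are a description. The locus number of AT5G64180 is close to that of the mutated gene LNK1 (AT5G64170). Whether the mutation itself alters the level of AT5G64180 was not tested.

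In continuous light the comparison asked whether the genotypes differ in gibberellin oxidase transcripts when no light-dark cycle sets the time. Of 6 members tested, 0 were called by edgeR, against 5.15% of 20158 genes, and DESeq2 also called 0. At an unadjusted p under 0.05 there were 2, GA3ox2 and GA2ox6. GA3ox2 held 3.86, 4.05 and 3.84 CPM in wild type and 2.86, 3.01 and 1.83 CPM in link1link2, and GA2ox6 held 6.34, 5.79 and 6.20 CPM against 4.53, 4.48 and 5.08 CPM. All 3 mutant libraries were lower for both genes, with log2 fold changes of -0.60 ± 0.20 for GA3ox2 (SE, adjusted p = 0.0934) and -0.38 ± 0.14 for GA2ox6 (adjusted p = 0.144), and neither passed the correction.

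The other members overlapped between the genotypes in continuous light. GA20ox1 held 1.2, 1.37 and 1.14 CPM in wild type and 1.66, 1.62 and 1.11 CPM in link1link2 (0.25 ± 0.29, adjusted p = 0.756). GA20ox2 was at 1.11 ± 0.186 against 1.05 ± 0.137 CPM (SD, n = 3), GA3ox1 at 6.43 ± 0.898 against 5.76 ± 0.728 CPM and GA2ox2 at 4.02 ± 0.983 against 3.88 ± 0.238 CPM. GA20ox3, GA2ox1 and GA2ox8 had between 8 and 12 counts per group and were not tested. The 95% counting interval of the ratio of link1link2 to wild type was 0.796 to 1.78 for GA20ox1 and 0.608 to 1.5 for GA20ox2, and this interval covers counting error only. The experiments were fitted apart, and whether the genotype effect differed between continuous light and long days was not tested.

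**Figure D4:**
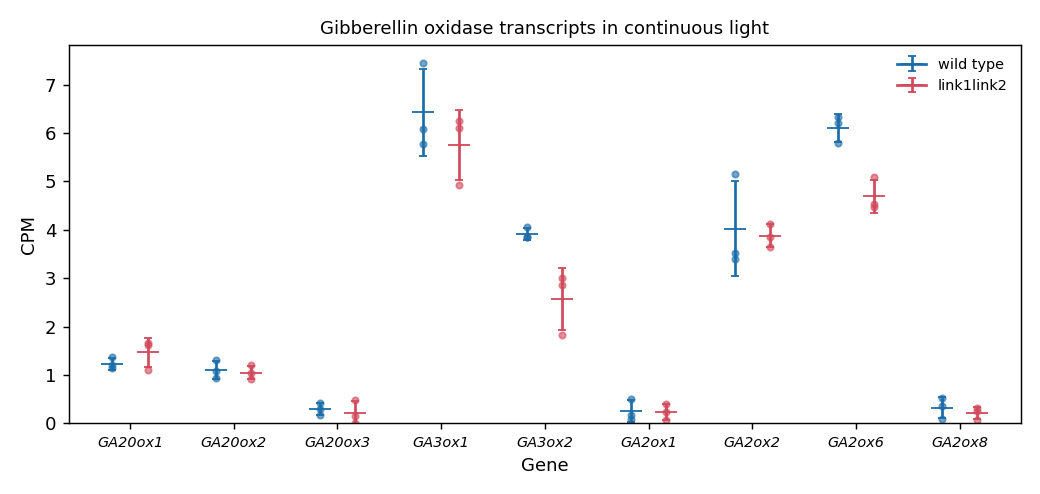
CPM of the 9 gibberellin oxidase genes (y axis) in continuous light in wild type (blue) and link1link2 (red), with points for libraries and bars for mean ± SD of 3 libraries. The mutant libraries of GA3ox2 (1.83 to 3.01 CPM) and GA2ox6 (4.48 to 5.08 CPM) lay below all wild-type ones, and the others overlapped.

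Of the other 7 gibberellin oxidase genes, GA2ox4 had 333 counts in long days and 39 in continuous light. Its long-day total was above those of the members GA2ox1 (263), GA2ox8 (111) and GA20ox3 (45). GA2ox3 and GA2ox7 had at most 6 counts in either experiment. GA20ox4, GA20ox5, GA3ox3 and GA3ox4 had 0 counts in every library, and in long days only GA2ox4, which had no called genotype effect, was tested. Of the 5 early synthesis genes 4 were tested, with 1 higher and 1 lower in the mean over long days, where 33.9% of all genes tested were called. GA3, which encodes the ent-kaurene oxidase, was higher in the mutant by 0.16 ± 0.04 on the log2 scale (SE, adjusted p = 0.000923). GA2, the ent-kaurene synthase, was lower (-0.27 ± 0.06, adjusted p = 0.000756), and its counts are uncertain, since it overlaps AT1G79470 by 78 bases and no source says that counting took strand into account.

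Of 7 genes of other inactivation routes and of transport 3 were tested, and 2 were higher in the mean over long days, where 33.9% of all genes tested were called. SWEET13, a sugar transporter that also carries gibberellin, was at 0.67, 0.417 and 0.909 CPM in wild type at ZT10 and at 4.06, 3.55 and 6.04 CPM in link1link2, all higher, and the mean difference was 0.76 ± 0.24 (SE, adjusted p = 0.0118, but 0.266 without the libraries over 2% chloroplast counts). NPF3.1, a gibberellin importer, was higher by 0.39 ± 0.06 (adjusted p = 3.73e-06), with 1.67 ± 0.16 at ZT10 and -0.92 ± 0.15 at ZT22 (adjusted p = 1.07e-09 and 1.34e-05). It overlaps AT1G68568 by 988 bases, and its counts are uncertain for the same reason.

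Of 10 perception genes (receptors, DELLA repressors and the F-box proteins that remove them) all were tested, with 4 higher and 2 lower in the mean over long days and 1 higher and 0 lower in continuous light. The shares of all genes called were 33.9% and 5.15%. The DELLA genes RGL2 (0.21 ± 0.07, SE, adjusted p = 0.0145) and RGL3 (0.18 ± 0.06, adjusted p = 0.0268) were higher in link1link2 and RGL1 was lower (-0.16 ± 0.06, adjusted p = 0.0482). The call of RGL1 was lost in 26 of 43 alternatives, 21 of which left out a single library, with adjusted p of up to 0.137 (without wild-type ZT6 library B). That of RGL3 was lost in DESeq2 (0.0855) and without wild-type ZT2 library B (0.058), wild-type ZT14 library C (0.0527), mutant ZT6 library A (0.0564) or mutant ZT10 library C (0.0549). GAI, another DELLA gene, was the perception gene called in continuous light, at 53.2 ± 3.92 CPM for the wild type and 65.7 ± 5.52 CPM for the mutant (SD, n = 3, log2 fold change 0.30 ± 0.07, adjusted p = 0.0122). That call was lost without wild-type library A (0.0891) or mutant library B (0.0519) or C (0.0551). The median of the 10 genes was 0.09 in the mean over long days, against 0.0078 for all genes, which the scaling holds near 0. The difference of these medians was not tested.

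Of 6 gibberellin-response genes all were tested, with 2 higher and 3 lower in the mean over long days. The share of all genes called was 33.9% there and 5.15% in continuous light. GASA1, known as induced by gibberellin, was higher by 0.81 ± 0.11 (SE, adjusted p = 1.11e-06), and SCL3, a GRAS-family gene induced by DELLA proteins, by 0.45 ± 0.05 (adjusted p = 1.01e-09). GASA6, known as induced by gibberellin as well, was lower (-0.30 ± 0.08, adjusted p = 0.00373), and 206 of its bases overlap a locus on the other strand. In continuous light GASA1 held 61.2, 62.6 and 64.7 CPM in wild type and 89.0, 113.3 and 82.8 CPM in the mutant, all higher (0.60 ± 0.11, adjusted p = 0.0126), and it was the response gene called there, though not without wild-type library A (0.0781), B (0.0595) or C (0.0825).

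Of 6 known regulators of gibberellin oxidase genes all were tested, with 3 higher and 1 lower in the mean over long days and 0 higher and 2 lower in continuous light. The shares of all genes called were 33.9% and 5.15%. RVE1, a MYB-like factor known to repress GA3ox2 in seeds, overlaps an opposite-strand locus by 225 bases. In continuous light its level was 39 ± 0.655 CPM for the wild type and 22.4 ± 1.42 CPM for link1link2 (SD, n = 3, -0.80 ± 0.07, adjusted p = 1.85e-07). In the mean over long days it was also lower (-0.41 ± 0.05, adjusted p = 3.35e-09), with 177.7 ± 9.85 against 57.6 ± 2.71 CPM at ZT22 but 4.8 ± 0.492 against 8.15 ± 0.685 CPM at ZT10. TEM1 and TEM2, repressors of the GA3ox genes in leaves, were higher in the mean over long days by 0.22 ± 0.06 and 0.14 ± 0.04 (adjusted p = 0.00195 and 0.00874), and TEM2 was lower in continuous light (-0.40 ± 0.10, adjusted p = 0.0386). The latter call was lost without wild-type library A (0.096) or B (0.157) or mutant library A (0.139) or C (0.0635).

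Summed levels of markers of other cell types differed between the genotypes in some of these groups. Root markers, 10 genes of which at most 1 was at 0 throughout a group, summed to 2698 to 2768 CPM in wild type and 1736 to 1979 CPM in link1link2 at ZT22, to 3634 to 3936 against 2540 to 3060 CPM at ZT18, and to 3033 to 3289 against 2575 to 2755 CPM in continuous light. Most of that sum was PYK10, with 955464 of the long-day counts, and by gene 4 of 9 tested root markers were lower at ZT22, 1 of 9 at ZT18 and 0 of 9 in continuous light. At ZT2, 6 dividing-cell markers summed to 136.2 to 154.2 CPM for the wild type and 80.8 to 114.7 CPM for the mutant. By the test, 4 of 6 were lower. KNOLLE, with the most long-day counts of this list (18197), shares 464 bases with AT1G08550 on the other strand, which had 27645. Its counts are uncertain, since no source says that counting took strand into account. Shoot apex markers, 4 genes, summed to 22.7 to 25.5 against 30.9 to 34.9 CPM at ZT2 and to 13.2 to 16.9 against 22.6 to 28.5 CPM at ZT6, with 1 of 2 tested higher at both times. Their sum was also higher in the mutant without overlap at ZT10 (13.9 to 14.5 against 17.5 to 20.3 CPM) and ZT14 (19.3 to 20.7 against 23.95 to 25.4 CPM). Calls by gene are not given for ZT10 and ZT14. Most long-day counts of this list were of KNAT1 (6050, against 532 for STM, 16 for CLV3 and 5 for WUS). Leaf markers, 5 genes, went both ways. Their sum was 33380 to 37380 CPM for the wild type against 24500 to 25870 CPM for link1link2 at ZT2 (5 of 5 lower), 38560 to 40880 against 35130 to 37740 CPM at ZT6 (3 higher, 2 lower) and 27120 to 28370 against 32200 to 33020 CPM at ZT10 (2 higher, 0 lower). It was 28560 to 31440 against 31970 to 34350 CPM at ZT14 (2 higher, 1 lower) and 25610 to 27680 against 21550 to 23770 CPM at ZT18 (2 higher, 3 lower). At ZT22 the sum was 20320 to 21580 against 15220 to 19140 CPM (2 higher, 3 lower). The leaf list itself holds genes known to follow the time of day, and the part of tissue makeup in the results at these times was not tested. The share of all genes called was 16.1% at ZT2, 20.1% at ZT6, 22.1% at ZT10 and 14.7% at ZT14. It was 20.2% at ZT18, 30.6% at ZT22 and 5.15% in continuous light.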

How the data were processed

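Seedling messenger RNA was sequenced in 42 libraries. Libraries of poly(A) RNA followed a TruSeq procedure with random hexamers, per the labels' protocols, which do not state that strand was kept. The authors deposited raw counts per locus, 1 table for each experiment, with no normalization. Per the submitters' processing notes the build was TAIR10, and the aligner, the counter and the treatment of multi-mapping reads are not given in the sources used here. Symbols, positions and upstream sequences came from the TAIR10.1 annotation of RefSeq (32835 of 33602 identifiers matched).

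Columns were assigned to groups by name, the mutant's laboratory name by elimination. Nothing ties the column letters A, B and C to the labels' replicate numbers. Letters were therefore not taken to pair the samples. Every pair of libraries within a group differed by more than counting noise.

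Each experiment was fitted alone with edgeR 4.0.16 in R 4.3.3 (filterByExpr, TMM, robust quasi-likelihood test, Benjamini-Hochberg adjustment over all genes tested within a comparison, threshold 0.05), which left 20158 and 20518 genes. The long-day model had 12 groups and 24 residual degrees of freedom. The mean effect over long days is the plain average of the log2 ratios at the 6 times. The SE of an edgeR log2 change is its absolute value divided by the square root of the F statistic of its test. It is therefore approximate, most of all for groups with few counts. Cosines of 24 h were fitted to log2 CPM with a prior count of 0.5, over a single cycle of harvests 4 h apart. Counting intervals are exact (95%), cover counting error only and take reads as independent. Alternatives were DESeq2 1.42.0, other scalings, no filter, a block by letter, each time alone, the chloroplast share as a covariate, and leaving out libraries. Scripts were tested on simulated counts. The upstream sequence of 1 member is not reported here. Members, lists, comparisons and tests were chosen with earlier results of these data known. Besides the members, up to 3 called genes of each pathway list with the largest mean effect over long days, or the largest effect in continuous light, are named, and per member the 3 genes with the highest correlation.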

Additional observations from a re-analysis of the deposited data

Results flagged for a closer look

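For 6 of the 7 members tested in long days the effect of the genotype was not the same at the 6 times, by edgeR's test of the interaction of genotype and time with Benjamini-Hochberg adjustment. Of all genes tested, 41.9% passed this test. Adjusted p was 1.31e-05 for GA20ox1, whose fold was largest in the evening and at night, and 0.000265 for GA20ox2, which was lower in link1link2 at ZT6 and higher at ZT22. For GA3ox1 it was 0.00406, with a higher level at ZT2 and a lower one at ZT6, and for GA3ox2 0.00717, with lower levels from ZT10 to ZT22 and none called at ZT2 and ZT6. GA2ox2 had 0.00273 and GA2ox6 0.0168. The value of GA2ox6 was 0.144 without the libraries over 2% chloroplast counts, 0.0806 without wild-type ZT22 library B and 0.0542 without mutant ZT22 library C.

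The same test was passed by 11 of the pathway genes named beside the members, but not by GA2, GASA1 and SCL3. All of them had been named for a called genotype effect in the same data, so their share is not comparable with the 41.9% of all genes. Adjusted p was 0.0025 for GA3, 1.7e-10 for NPF3.1 and 1.51e-05 for SWEET13 among synthesis and transport genes. It was 2.79e-07 for GAI, 0.0102 for RGL1, 6.49e-06 for RGL2 and 0.000301 for RGL3 among DELLA genes, and 0.00206 for the response gene GASA6. Among the regulators it was 1.53e-05 for TEM1, 5.71e-08 for TEM2 and 1.66e-18 for RVE1, whose difference was -1.63 on the log2 scale at ZT22 and 0.74 at ZT10.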

How the results depend on the processing

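Of the counts of members, the one in continuous light went from 0 to 1 with the replicate block by column letter, which called GA3ox2 (adjusted p = 0.0466), although the letters are not known to pair the samples. Deviations from the group mean correlated by 0.0508 to 0.133 (continuous light) and -0.32 to 0.117 (long days) between libraries of the same letter. The block moved the count over all genes there from 1039 to 1888. The count of members whose rhythm differed went from 2 to 1 without the libraries over 2% chloroplast counts, and lay between 1 and 2 on leaving out single libraries. The 18 pairs of a member and a time called in long days numbered 20 with the replicate block and between 12 (each time alone) and 20 under the other settings, and 15 to 19 on leaving out single libraries. Over all genes, the calls in continuous light were 657 to 929 on leaving out single libraries (657 without wild type library B). Fitting each time alone gave 2028 calls at ZT2 and 1704 at ZT14 in place of 3306 and 3016. Leaving out the libraries over 2% chloroplast counts gave 3695 at ZT22 in place of 6285, and 1647 by the cosine terms in place of 3148. The cause of these differences was not tested. The alternatives were run for the members in every comparison. For the named pathway genes they were run in continuous light and in the mean over long days. No value called under either setting changed direction. The next counts take each pair of a value and an alternative once, so that a value can count more than once. By pairs, there were 104 changes of direction in values called under neither setting. Among the members, 23 such pairs lost a call and 13 gained one under settings other than leaving out a library. GA20ox1 at ZT2, ZT14, ZT18 and ZT22 and in the mean, GA20ox2 at ZT22, GA3ox2 at ZT10 and ZT14 and in the mean, and GA2ox1 at ZT6 passed under every alternative that gave them a value. The fit of each time alone gave no value for GA20ox1 at ZT2, ZT14, ZT18 and ZT22, nor for GA2ox1 at ZT10. In the 12 calls of that setting these pairs are therefore missing as not tested, not as lost. Steps of link1link2 that passed under some settings, but not in the reported test, were GA20ox1 from ZT22 to ZT2 (0.0498 with the replicate block, 0.00998 without mutant ZT2 library C and 0.0476 without mutant ZT22 library C), GA2ox2 from ZT2 to ZT6 and GA2ox6 from ZT14 to ZT18 (lowest adjusted p 0.0213 and 0.0474 on leaving out a library). Of the 17 values of named pathway genes, 6 lost their call under at least 1 alternative. DESeq2 gave no adjusted p for 2 values of members. Depth was the limit for GA20ox3, GA2ox8 and, at night, GA2ox1 and GA20ox1, whose groups held few counts.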
